A study of Homo sapiens with 6 samples.

Results

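Peroxins and enzymes of peroxisomal oxidation and ether lipid synthesis were examined in HepG2-hCAR cells, a human liver carcinoma line carrying an inducible receptor. The genes, 12 peroxins and 20 enzymes, were chosen by name and with earlier results of these data known. Of these 32, 30 were in the table of 11456 genes. PEX7 and FAR1 were not analysed here. All 6 libraries came from the same clone, grown from a single HepG2 cell after lentiviral delivery of a doxycycline-inducible human CAR cDNA and puromycin selection. Cells received vehicle (3 libraries) or the tetracycline antibiotic doxycycline at 1 µg/ml (3 libraries), in both cases for 72 h. CAR, encoded by NR1I3, is the constitutive androstane receptor, a hepatocyte nuclear receptor best known as an activator of drug-metabolizing enzymes. The series asks which mRNAs differ when it is induced. No library received doxycycline without the inducible receptor, so the antibiotic and the receptor cannot be told apart.

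Peroxisomes are small organelles bounded by a single membrane. Peroxins insert their membrane proteins and import folded enzymes into their matrix, guided by short targeting signals. In liver they shorten very-long-chain and branched fatty acids and the side chains of bile acid precursors, release hydrogen peroxide that catalase removes, and begin the synthesis of ether lipids.

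With doxycycline the mRNAs of several oxidation enzymes fell, with catalase and the beta-oxidation genes EHHADH, ACAA1 and ACOX2 at 0.440 to 0.549 of their vehicle level, whereas 9 of 11 peroxins did not pass the test. Of the 30 genes 11 fell, 1 rose and 18 did not pass the test, so 12 were called. Among all 10469 genes tested, 28.8% were called, 13.6% lower and 15.2% higher. Of the 19 enzymes 9 fell and 1 rose, with a median log2 fold change of -0.28, and of the 11 peroxins 2 fell and 0 rose, with a median of 0.00. At an unadjusted limma p below 0.05 the peroxins gave 4 lower and 0 higher, against 19.4% and 21.4% of all genes tested. The median over all genes tested was 0.01. The difference between the enzymes and the peroxins was not tested. Groups did not overlap in 14 genes that were lower and 1 that was higher with doxycycline, against 22.3% and 24.8% of all genes tested. The 14 lower ones were 4 of the 11 peroxins and 10 of the 19 enzymes. Values are FPKM, in which fragments are divided by transcript length and by all mapped fragments of the library, given as mean ± SD of 3 libraries, and a log2 fold change is the mean log2(FPKM + 1) with doxycycline less that with vehicle. Calls are from limma fitted to all genes, at a Benjamini-Hochberg adjusted p below 0.05. FPKM is a share of a library, so in these bulk samples fewer cells expressing a gene and less RNA per cell cannot be told apart.

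**Figure D1:**
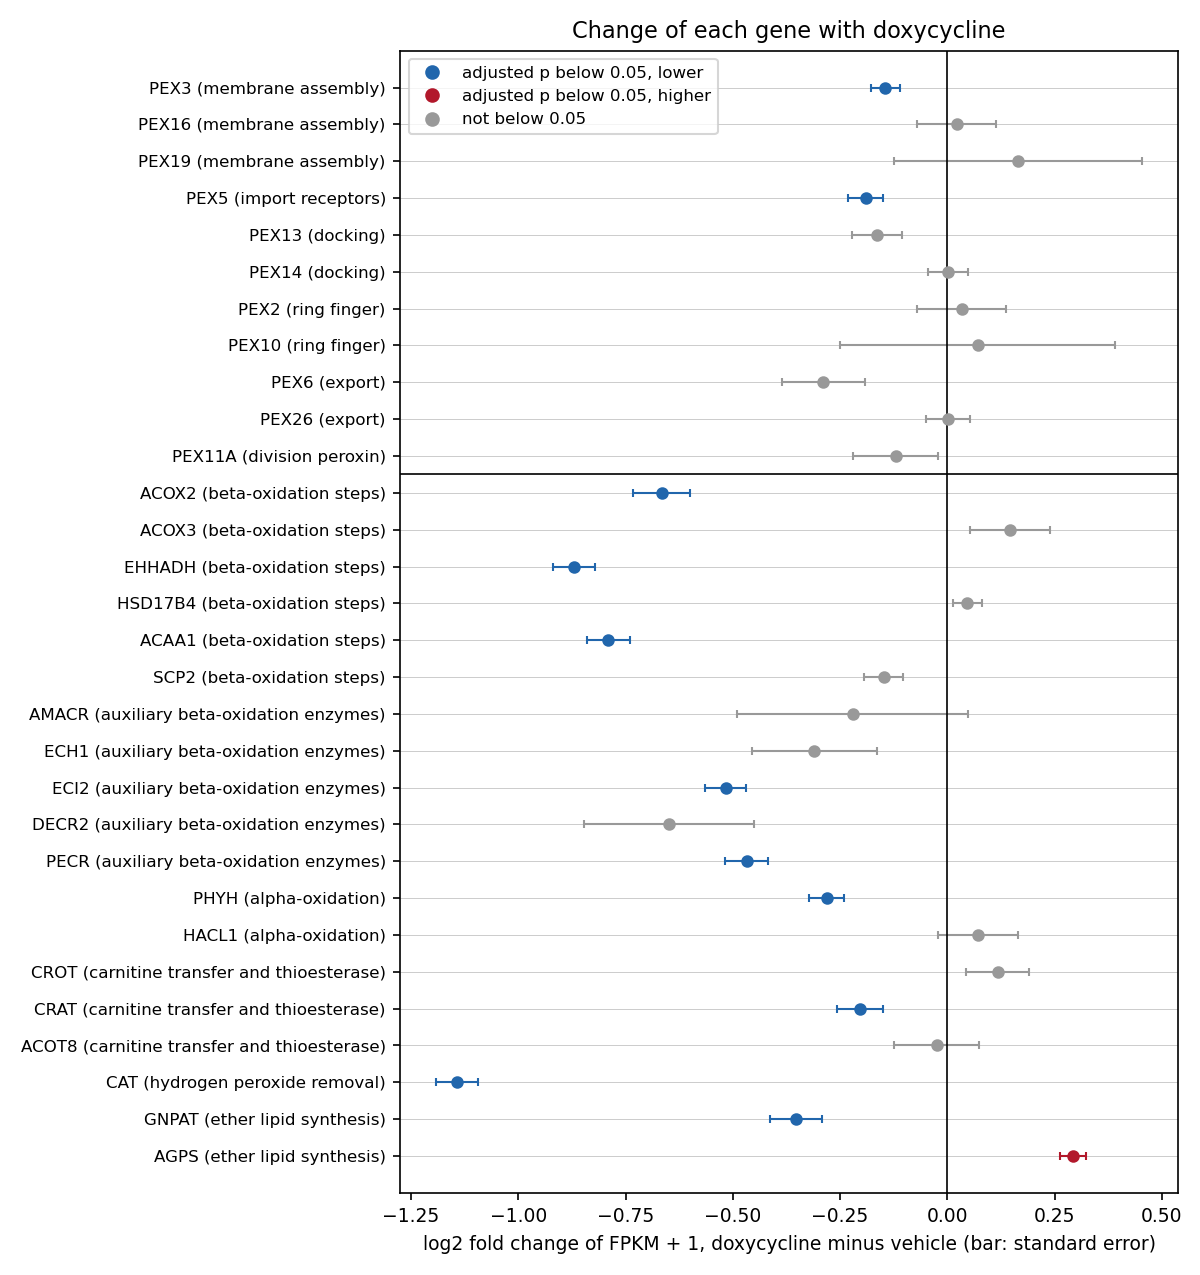
Log2 fold change of FPKM + 1 (horizontal axis, doxycycline minus vehicle) for the 11 peroxins above the line and the 19 enzymes below it, with bars of 1 standard error. CAT lies farthest to the left at -1.14 and AGPS is the called gene on the right at 0.29, while the peroxins lie between -0.29 and 0.17.

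**Figure D2:**
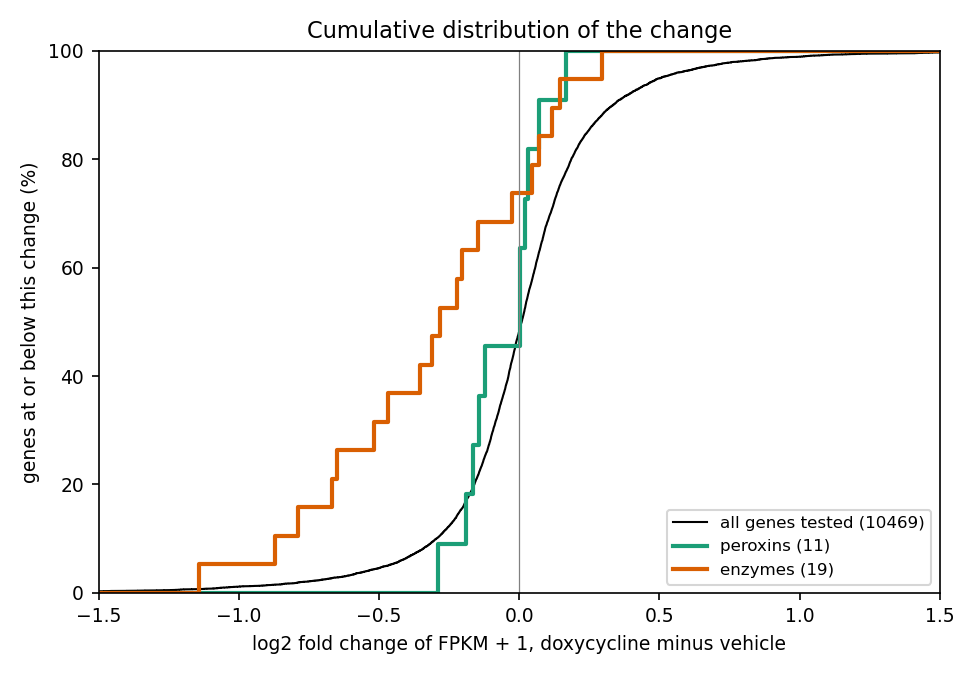
Cumulative percentage of genes (vertical axis) at or below each log2 fold change of FPKM + 1 (horizontal axis) for all 10469 genes tested, the 11 peroxins and the 19 enzymes. Over most of its range the curve of the enzymes lies to the left of the others, with a median of -0.28 against 0.00 for the peroxins and 0.01 for all genes.

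Catalase (CAT), the haem enzyme that breaks down hydrogen peroxide, had the largest change of the 30 genes. It was at 41.6, 40.4 and 40.5 FPKM in the vehicle libraries and at 17.9, 16.9 and 19.2 FPKM in the doxycycline libraries. Every doxycycline value was thus far below every vehicle value. CAT fell 2.27-fold, from 40.8 ± 0.691 to 18.0 ± 1.15 FPKM (log2 fold change -1.14, SE 0.05, adjusted p = 3.86e-05). In GRCh37 the gene spans 34460472 to 34493609 of chromosome 11, plus strand. With vehicle it had the highest level of the 30 genes and made up 15.8% of the summed FPKM of the 19 enzymes. With doxycycline it ranked 5 and made up 8.89%, and its values overlapped those of HSD17B4 (18.4 ± 0.495 FPKM), which ranked 4. AGPS, GNPAT and ECH1 were then the highest, in this order.

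The 250 bases before the start of 4 genes are shown because these genes moved unequally: CAT and PECR fell, and GNPAT and AGPS, which act in succession in ether lipid synthesis, moved in opposite directions. They are RefSeq sequences on GRCh38.p14, read 5′ to 3′ on the strand of the gene, at chr11:34438684-34438933 (CAT, plus strand), chr2:216081810-216082059 (PECR, minus), chr1:231240962-231241211 (GNPAT, plus) and chr2:177392523-177392772 (AGPS, plus). Capitals mark every match, on either strand, to the nuclear receptor half-site AGGTCA, the GC box GGGCGG, the CCAAT box or the E-box CACGTG.
CAT: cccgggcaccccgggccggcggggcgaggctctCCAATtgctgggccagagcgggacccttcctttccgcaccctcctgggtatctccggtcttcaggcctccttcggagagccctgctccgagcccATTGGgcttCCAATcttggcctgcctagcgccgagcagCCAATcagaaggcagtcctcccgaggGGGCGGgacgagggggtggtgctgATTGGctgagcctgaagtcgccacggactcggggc
PECR: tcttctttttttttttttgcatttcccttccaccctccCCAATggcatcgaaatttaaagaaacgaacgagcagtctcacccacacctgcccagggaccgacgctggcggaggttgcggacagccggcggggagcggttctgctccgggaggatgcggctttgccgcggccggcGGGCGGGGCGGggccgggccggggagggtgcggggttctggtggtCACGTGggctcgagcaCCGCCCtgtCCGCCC
GNPAT: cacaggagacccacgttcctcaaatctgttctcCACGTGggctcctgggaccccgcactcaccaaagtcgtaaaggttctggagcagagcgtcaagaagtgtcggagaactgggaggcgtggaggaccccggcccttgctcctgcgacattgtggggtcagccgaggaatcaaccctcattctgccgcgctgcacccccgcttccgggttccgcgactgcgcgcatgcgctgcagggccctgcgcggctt
AGPS: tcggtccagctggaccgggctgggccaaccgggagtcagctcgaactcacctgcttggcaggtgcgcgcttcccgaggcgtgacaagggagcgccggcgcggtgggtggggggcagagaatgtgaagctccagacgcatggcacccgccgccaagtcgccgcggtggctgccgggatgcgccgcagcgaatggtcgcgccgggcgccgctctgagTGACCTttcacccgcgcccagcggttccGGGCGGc
In this window CAT held 5 matches to CCAAT and 1 GC box. PECR held 4 GC boxes, of which the pair at 76 to 66 bases before the start share a base, with 1 CCAAT and 1 E-box. GNPAT held 1 E-box, and AGPS held 1 GC box and the half-site TGACCT, which is AGGTCA on the other strand, at 35 to 30 bases before the start. No window was found for PEX2, PEX14, ACOX2, EHHADH, ACAA1, CRAT, ECH1 and DECR2, so no motif was searched in them. A window was found for the other 22 of the 30 genes. AGPS was the gene among these 22 with a half-site, which 12.1% of all 35116 windows in the RefSeq table held. Direct repeats of the half-site with 1 base between them (AGGNCANAGGNCA, 0.268% of all windows) or 4 bases between them (AGNTCANNNNAGNTCA, 0.094%) were in 0 of the 22. At such low shares a count of 0 in 22 windows says little, and bases beyond these 250 were not searched. The GC box was in 15 of the 22 (42.6% of all windows), CCAAT in 9 (32%) and the E-box in 3 (6.34%). These shares are over every window of the RefSeq table and not only those of the genes measured here. The counts were not tested against them. A match describes letters and not a bound site.

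Peroxisomal beta-oxidation begins with an acyl-CoA oxidase, goes on through a bifunctional hydratase and dehydrogenase, and ends with a thiolase. At each step 1 listed enzyme fell and another did not pass the test. ACOX2, the oxidase of branched chains and bile acid intermediates, was at 4.01, 3.56 and 3.62 FPKM with vehicle and at 1.94, 2.17 and 1.84 FPKM with doxycycline. ACOX2 fell 1.88-fold (log2 fold change -0.67, SE 0.07, adjusted p = 0.000941). Its paralogue ACOX3 was at 3.38 ± 0.345 and 3.86 ± 0.461 FPKM, with overlapping groups (adjusted p = 0.289).

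EHHADH, the L-bifunctional protein, was at 11.1, 11.0 and 10.1 FPKM with vehicle and at 5.53, 5.35 and 5.36 FPKM with doxycycline. The groups lay far apart, and EHHADH fell 1.98-fold (log2 fold change -0.87, SE 0.05, adjusted p = 9.83e-05). HSD17B4, the D-bifunctional protein that handles branched and very long chains, was at 18.1, 17.7 and 17.7 FPKM and at 18.4, 17.9 and 18.9 FPKM. These groups overlapped (log2 fold change 0.05, SE 0.03, adjusted p = 0.352). The ratio of EHHADH to HSD17B4 within a library was 0.602 ± 0.0297 with vehicle and 0.294 ± 0.00956 with doxycycline.

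ACAA1, the 3-ketoacyl-CoA thiolase, was at 15.1, 13.5 and 14.6 FPKM with vehicle and at 7.86, 7.70 and 8.16 FPKM with doxycycline. ACAA1 fell 1.82-fold (log2 fold change -0.79, SE 0.05, adjusted p = 0.000157), without overlap. SCP2, whose longer form is the thiolase of branched chains and whose shorter form is sterol carrier protein 2, was at 9.50 ± 0.365 and 8.47 ± 0.301 FPKM. Its groups did not overlap but it did not pass the test (adjusted p = 0.0583). The ratio of ACAA1 to SCP2 was 1.52 ± 0.0245 and 0.935 ± 0.0594. The genes of ACOX2, EHHADH and ACAA1 all lie on chromosome 3 of GRCh37, at 58490863 to 58523046, 184908412 to 184999778 and 38144620 to 38178733.

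**Figure D3:**
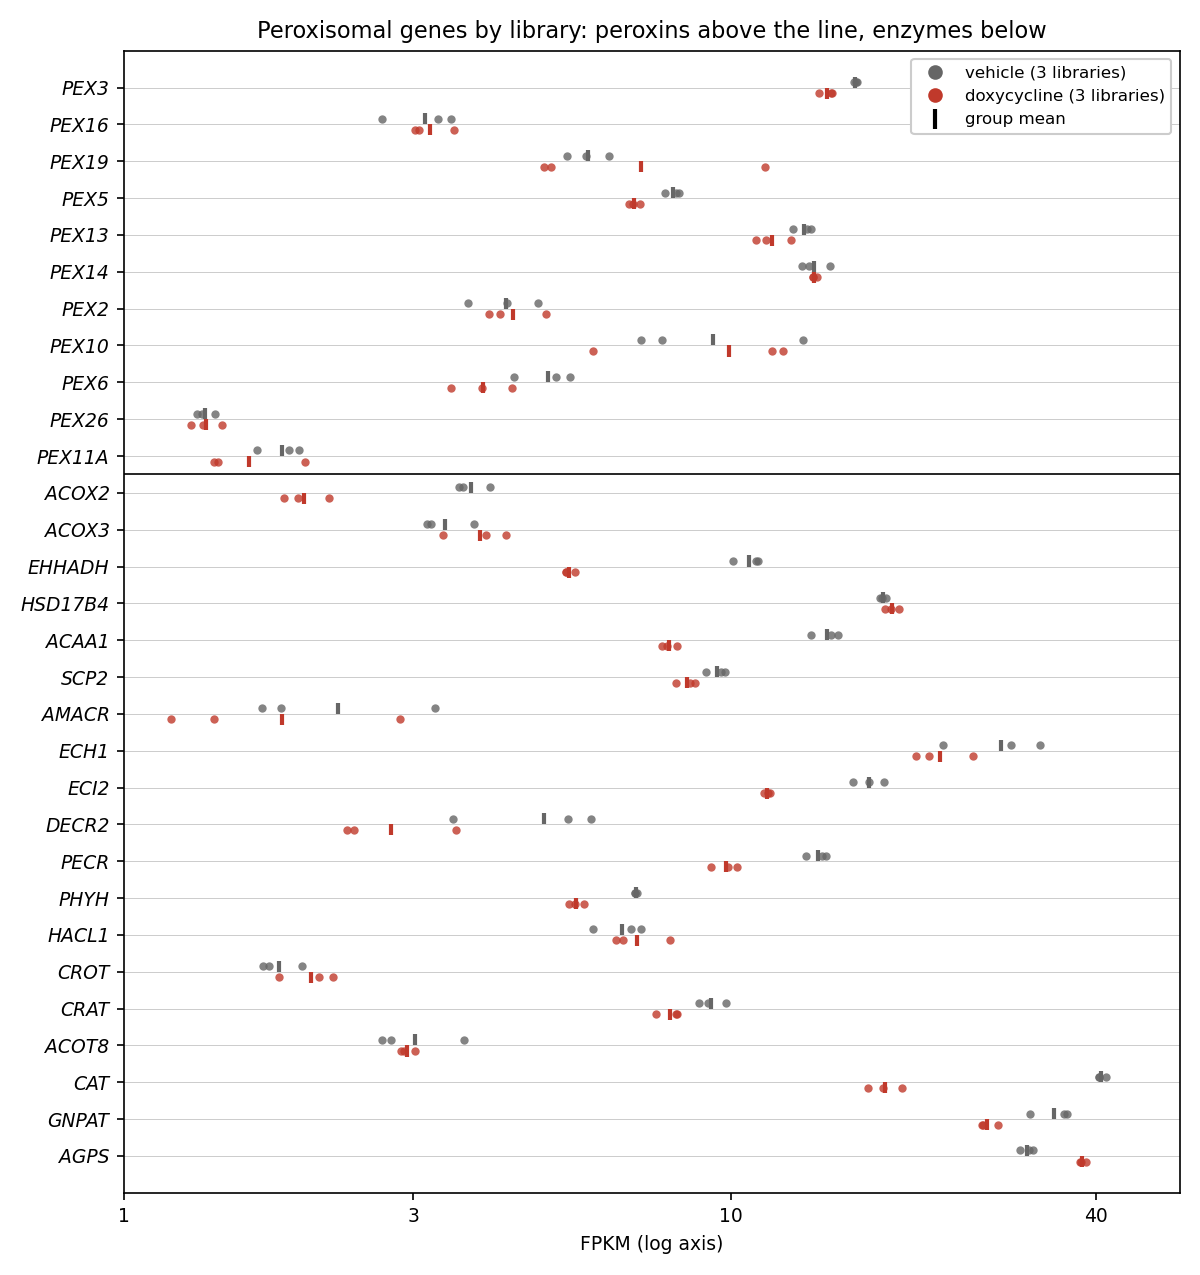
FPKM of each gene (horizontal log axis) in the 3 vehicle and 3 doxycycline libraries, shown as points, with group means as vertical ticks. CAT, EHHADH, ACAA1 and ACOX2 have groups that lie apart, whereas HSD17B4 and PEX14 overlap, and PEX19, PEX10 and AMACR have widely spread points within a group.

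Auxiliary enzymes prepare unsaturated or branched chains for the cycle, and 2 of these 5 fell, against 13.6% of all genes tested. ECI2, an isomerase of double bonds in enoyl-CoA, was at 17.9, 15.9 and 16.9 FPKM with vehicle and at 11.4, 11.5 and 11.6 FPKM with doxycycline. It fell 1.47-fold (log2 fold change -0.52, SE 0.05, adjusted p = 0.000685). PECR, a trans-2-enoyl-CoA reductase, was at 14.4, 13.3 and 14.1 FPKM and at 10.3, 9.28 and 9.92 FPKM. Both genes had groups that did not overlap, and PECR fell 1.42-fold (log2 fold change -0.47, SE 0.05, adjusted p = 0.00127). PECR overlaps MREG on the same strand, which rose from 9.04 ± 0.884 FPKM with vehicle to 11.5 ± 1.17 FPKM with doxycycline (adjusted p = 0.04996). What the overlap adds to either value was not tested.

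The other auxiliary enzymes varied widely between libraries of a group. DECR2, a 2,4-dienoyl-CoA reductase, was at 5.40, 3.48 and 5.88 FPKM with vehicle and at 2.33, 3.53 and 2.39 FPKM with doxycycline (log2 fold change -0.65, SE 0.20, adjusted p = 0.0553). Vehicle replicate 2 was the low value and doxycycline replicate 2 the high one, and DECR2 passed the test without vehicle replicate 2 (adjusted p = 0.0198) or without doxycycline replicate 2 (0.0456). It overlaps NME4 on the same strand (13.7 ± 2.75 and 11.1 ± 1.54 FPKM), and the part of the overlap was not tested. ECH1, a dienoyl-CoA isomerase, was at 27.9 ± 5.07 and 22.2 ± 2.57 FPKM (adjusted p = 0.166), and passed without vehicle replicate 2 (adjusted p = 0.0374), the lowest of its group at 22.4 FPKM. AMACR, a racemase for branched acyl-CoA, was at 1.81, 1.69 and 3.26 FPKM and at 2.85, 1.41 and 1.20 FPKM, with 1 high library in each group (adjusted p = 0.591).

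Alpha-oxidation removes 1 carbon from phytanic acid, a branched fatty acid of the diet. PHYH, the phytanoyl-CoA hydroxylase of its first step, was at 6.96, 7.02 and 6.95 FPKM with vehicle and at 5.54, 5.42 and 5.74 FPKM with doxycycline. PHYH fell 1.25-fold (log2 fold change -0.28, SE 0.04, adjusted p = 0.00385), and its groups did not overlap. HACL1, the lyase of the next step, was at 6.62 ± 0.613 and 7.02 ± 0.805 FPKM (adjusted p = 0.617), with overlapping groups. HACL1 overlaps BTD on the opposite strand, which fell (3.74 ± 0.412 to 1.96 ± 0.286 FPKM), and the part of this overlap was not tested.

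Chain-shortened products leave as carnitine esters or free acids. CRAT, carnitine acetyltransferase, was at 8.88, 9.84 and 9.17 FPKM with vehicle and at 8.12, 8.17 and 7.53 FPKM with doxycycline. CRAT fell 1.17-fold (log2 fold change -0.20, SE 0.05, adjusted p = 0.0357). This call ended without vehicle replicate 2 (adjusted p = 0.092) or 3 (0.0807) and without doxycycline replicate 1 (0.071), 2 (0.0634) or 3 (0.0959). CROT, the octanoyltransferase, was at 1.80 ± 0.147 and 2.04 ± 0.213 FPKM (adjusted p = 0.286), and the thioesterase ACOT8 at 3.02 ± 0.539 and 2.93 ± 0.0824 FPKM (adjusted p = 0.874). The groups of both overlapped.

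Ether lipid synthesis starts with GNPAT, which acylates dihydroxyacetone phosphate, and AGPS, which exchanges the acyl group for an alkyl chain. The 2 mRNAs moved in opposite directions. GNPAT was at 35.9, 35.4 and 31.2 FPKM with vehicle and at 27.5, 26.0 and 25.9 FPKM with doxycycline. GNPAT (chromosome 1 of GRCh37, 231376953 to 231413719) fell 1.29-fold (log2 fold change -0.35, SE 0.06, adjusted p = 0.00758). AGPS was at 30.0, 31.1 and 31.5 FPKM and at 37.8, 38.6 and 37.7 FPKM. With doxycycline AGPS (chromosome 2, 178257372 to 178424027) was 1.23-fold higher (log2 fold change 0.29, SE 0.03, adjusted p = 0.0011), and it was the gene among the 30 that rose. GNPAT and AGPS overlapped in level with vehicle, and with doxycycline all 3 AGPS values were above all 3 GNPAT values. AGPS overlaps NFE2L2 on the opposite strand, which was at 17.8 ± 7.55 and 26.4 ± 0.868 FPKM (adjusted p = 0.147). The part of this overlap was not tested.

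Among the peroxins the 2 that fell changed little. PEX3, which anchors newly made membrane proteins at the peroxisome, was at 16.1, 15.9 and 16.1 FPKM with vehicle and at 14.6, 14.0 and 14.7 FPKM with doxycycline (log2 fold change -0.14, SE 0.03, adjusted p = 0.0238). PEX5, the import receptor for matrix enzymes with a C-terminal signal, was at 8.12, 7.79 and 8.22 FPKM and at 7.08, 6.80 and 6.89 FPKM (log2 fold change -0.19, SE 0.04, adjusted p = 0.0173). Both had groups that did not overlap, and both calls were fragile. That of PEX3 ended without vehicle replicate 1, 2 or 3 (adjusted p = 0.0638, 0.06 and 0.0702) and without doxycycline replicate 1 or 2 (0.0536 and 0.0631). The PEX5 call ended without vehicle replicate 1 or 3 (0.0527 and 0.0591) and without doxycycline replicate 2 or 3 (0.0542 and 0.0532).

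The partners of these peroxins did not pass the test. PEX19, the cytosolic chaperone that delivers membrane proteins to PEX3, was at 5.36, 6.31 and 5.77 FPKM with vehicle and at 11.4, 4.92 and 5.06 FPKM with doxycycline, where replicate 1 stood apart (adjusted p = 0.712). Without that library its log2 fold change was -0.18 instead of 0.17 (adjusted p = 0.146). PEX16, which recruits PEX3, was at 3.14 ± 0.419 and 3.19 ± 0.268 FPKM (adjusted p = 0.881). Of the docking proteins, PEX14 was at 13.7 ± 0.770 and 13.7 ± 0.119 FPKM (adjusted p = 0.989), and PEX13 at 13.2 ± 0.483 and 11.7 ± 0.814 FPKM (adjusted p = 0.0821). PEX13 passed without doxycycline replicate 1 (adjusted p = 0.0368). It overlaps PUS10 on the opposite strand, which fell (2.9 ± 0.13 to 1.95 ± 0.101 FPKM). PEX14 overlaps DFFA on the opposite strand, which rose (28.0 ± 1.16 to 32.2 ± 0.956 FPKM). The part of these overlaps was not tested, and overlaps with genes not called are not all given.

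The RING-finger peroxins mark the import receptor with ubiquitin, and an ATPase complex then pulls it out of the membrane. PEX2 was at 4.26 ± 0.562 and 4.38 ± 0.518 FPKM (adjusted p = 0.843). PEX10 was at 13.2, 7.13 and 7.72 FPKM and at 12.2, 11.7 and 5.94 FPKM, a spread that covered both groups (adjusted p = 0.893). PEX6, an ATPase of the export complex, was at 4.99 ± 0.537 and 3.90 ± 0.457 FPKM, without overlap (log2 fold change -0.29, SE 0.10, adjusted p = 0.0717), and passed without vehicle replicate 1 (adjusted p = 0.0484). PEX26, its membrane anchor, had the lowest level of the 30 genes, at 1.36 ± 0.0494 and 1.36 ± 0.0801 FPKM (adjusted p = 0.978). PEX11A, which takes part in elongation and division, was at 1.82 ± 0.146 and 1.61 ± 0.329 FPKM (adjusted p = 0.417).

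Peroxisomal genes outside these 32 were listed as well. Of 12 other peroxins and division genes tested 1 fell and 1 rose (13.6% and 15.2% of all genes tested), with a median log2 fold change of 0.07. MPV17L, a membrane protein related to MPV17, fell from 8.18 ± 0.292 to 4.59 ± 0.289 FPKM (adjusted p = 0.000319), and ACBD5, which tethers peroxisomes to the endoplasmic reticulum, rose from 13.7 ± 0.858 to 16.3 ± 0.642 FPKM (adjusted p = 0.0217). ACBD5 was no longer called when doxycycline replicate 1 (adjusted p = 0.0661) or 2 (0.0509) or vehicle replicate 1 (0.0539) was left out. Of 25 other transporters and enzymes tested 6 fell and 1 rose (13.6% and 15.2% of all genes tested), with a median of -0.11. The largest decreases were in EPHX2, soluble epoxide hydrolase (8.84 ± 0.700 to 4.81 ± 0.297 FPKM), the acyl-CoA dehydrogenase ACAD11 (5.91 ± 1.47 to 3.19 ± 0.141 FPKM), HSDL2, a hydroxysteroid dehydrogenase-like protein (32.5 ± 0.413 to 20.0 ± 0.539 FPKM), PMVK, phosphomevalonate kinase (12.0 ± 0.902 to 8.62 ± 0.634 FPKM), and ISOC1, an isochorismatase domain protein (24.5 ± 0.678 to 19.6 ± 0.910 FPKM). The ACAD11 call ended without vehicle replicate 1 (adjusted p = 0.0648) or 2 (0.0708) and without any 1 of the doxycycline replicates (0.0621, 0.0698 and 0.0598). ACSL4, an acyl-CoA synthetase that is found in several organelles, rose 1.18-fold from 80.2 ± 0.417 FPKM, to 98.6, 94.1 and 92.3 FPKM in the doxycycline libraries (adjusted p = 0.00252), and is named after its values were seen. ABCD3, an acyl-CoA transporter of the peroxisomal membrane, was at 32.7 ± 0.309 and 32.1 ± 0.954 FPKM, with overlapping groups (adjusted p = 0.587).

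Mitochondria hold a beta-oxidation pathway of their own, built from related enzymes. Of its 19 tested genes 5 fell and 0 rose (13.6% and 15.2% of all genes tested), with a median log2 fold change of -0.15. At an unadjusted limma p below 0.05 10 were lower and 0 higher (19.4% and 21.4% of all genes tested). Without vehicle replicate 2, SLC25A20, the acylcarnitine carrier, was called higher, a gene singled out after its values were seen. The 5 that fell were ACADSB (24.9 ± 1.58 to 15.8 ± 1.56 FPKM), which acts on short branched chains, HADHB (42.7 ± 0.0576 to 35.6 ± 1.77 FPKM) and HADHA (114.8 ± 3.52 to 101.6 ± 0.708 FPKM), the subunits of the trifunctional protein, the electron carrier ETFA (25.9 ± 0.153 to 22.3 ± 1.69 FPKM) and ACADVL (27.0 ± 0.0808 to 23.5 ± 1.61 FPKM), the dehydrogenase of very long chains. The number lower was 3 without vehicle replicate 1 or 3, and the calls of ETFA and ACADVL ended without any 1 of the vehicle replicates (adjusted p = 0.0921 to 0.1 and 0.0925 to 0.0959) and without doxycycline replicate 2 (0.0653 and 0.0509), that of ACADVL also without doxycycline replicate 3 (0.0526). The mitochondrial thiolase ACAA2 was at 18.9 ± 2.22 and 19.0 ± 1.25 FPKM (adjusted p = 0.958), and the ratio of ACAA1 to ACAA2 was 0.768 ± 0.0823 with vehicle and 0.418 ± 0.0185 with doxycycline. For the isomerases ECI2 and ECI1 the ratio was 1.62 ± 0.0961 and 1.14 ± 0.0965, and for EHHADH and HADHA it was 0.0935 ± 0.00494 and 0.0533 ± 0.00139. In these 3 pairs the ratio was lower in every doxycycline library than in every vehicle library. For DECR2 and DECR1 the ratio was 0.700 ± 0.206 and 0.453 ± 0.0627, and the groups overlapped. The ratios here and above are descriptions, as the pairs were chosen with the changes of some of these genes known. In each pair the numerator is the gene with the lower log2 fold change, so a lower ratio follows from that choice. The ratios compare mRNA per gene and do not show in which organelle a product acts.

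**Figure D4:**
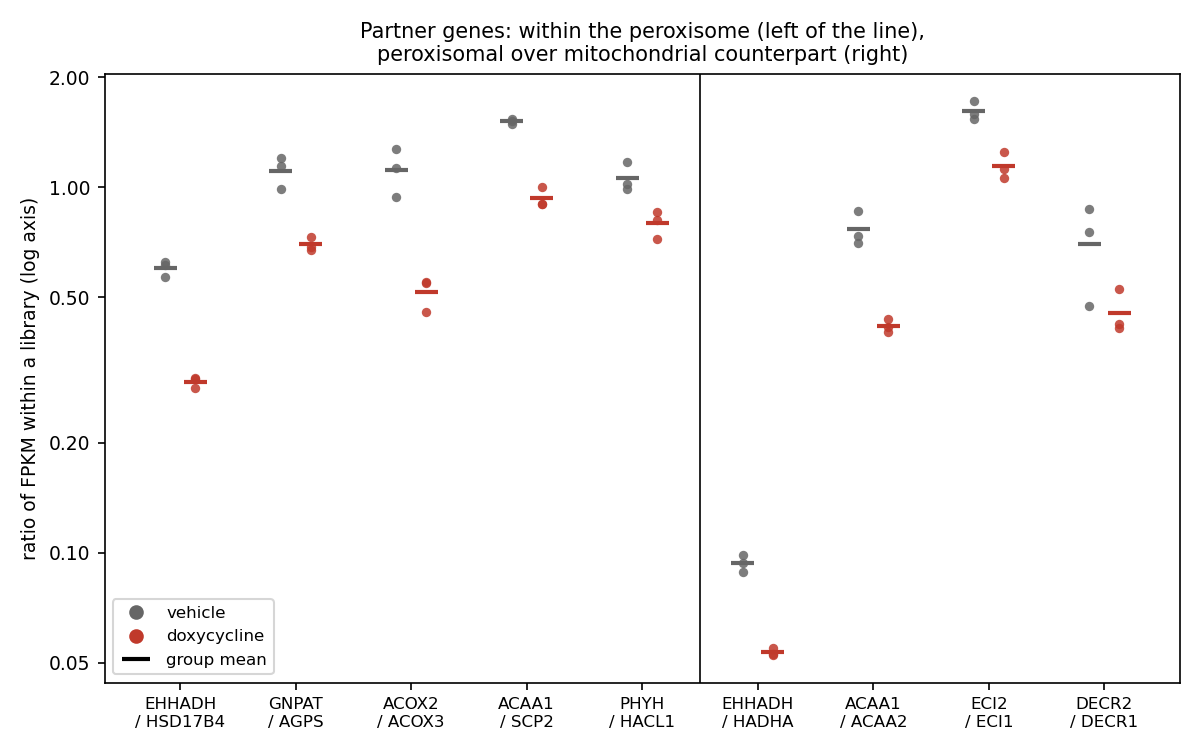
Ratio of FPKM within a library (vertical log axis) for 5 pairs of peroxisomal genes and, right of the line, 4 pairs of a peroxisomal enzyme over its mitochondrial counterpart, with points for libraries and lines for group means. Doxycycline libraries lie below vehicle libraries in each pair except DECR2 over DECR1, where they overlap. In each pair the numerator is the gene with the lower log2 fold change, so the shared direction follows from the choice of pairs.

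As a check of the labels, NR1I3 was at 3.24 ± 0.290 FPKM with vehicle and 321 ± 8.51 FPKM with doxycycline. All 12 listed hepatocyte markers were in the table and 8 fell, against 13.6% of all genes tested. The sum of the 12 was 1950 to 2120 FPKM with vehicle and 1010 to 1040 FPKM with doxycycline. Whether this bears on the peroxisomal genes was not tested. Of the markers of other cells, 0 of 5 endothelial, 1 of 7 fibroblast (PDGFRB) and 3 of 7 leukocyte genes (CD14, CD68 and LYZ) were in the table, and the others were not analysed here. The leukocyte sum was 544 to 586 FPKM with vehicle and 263 to 277 FPKM with doxycycline, nearly all of it LYZ. CD68 fell 1.67-fold, to 5.08 ± 0.618 FPKM (adjusted p = 0.00226). CD14, too low to be tested, went the other way, from 0.0578 ± 0.0256 to 1.92 ± 0.0768 FPKM without overlap, and PDGFRB rose from 0.856 ± 0.0957 to 1.43 ± 0.0327 FPKM (adjusted p = 0.00397). The part of these genes in the results was not tested. Whether the libraries are from separate cultures is not stated in the labels, so p-values measure the spread between these libraries, which may be technical. No depth is given because the values are already scaled.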

How the data were processed

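The authors deposited FPKM per gene, with 1 column per library and no pooling per the labels. Per the submitters' processing notes the tools were FastQC, cutadapt, HISAT2 and StringTie and the build GRCh37, and versions, options and the annotation are not given in the sources used here. Libraries were made from poly(A) RNA with a strand-specific kit, per the labels' protocols, and whether strand was used in quantification is not given. Depth is unknown.

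The 11461 entries were reduced to 11456 symbols by keeping the entry with the highest mean. A gene was tested where its FPKM averaged at least 1 over 6 libraries (10469, with 987 left out), and all 30 peroxisomal genes in the table passed. In the file itself the larger group mean of every gene was at least 0.500. Log2(FPKM + 1) was fitted with limma (version 3.58.1, R 4.3.3), with group as the only term and a variance trend, two-sided, with Benjamini-Hochberg adjustment over all genes tested. The procedure was tested on simulated data. Alternatives were other pseudocounts, filters, scalings and moderation, the replicate number as a block, and leaving out each library. Replicate numbers were not used to pair the libraries in the main fit. Members and lists were chosen with earlier results of these data known. All members are named, with up to 5 called genes with the largest change from each further list. ABCD3, PPARA and its listed partners and the mitochondrial counterparts were named whatever their values. Some genes of the further lists are not reported here. Coordinates of genes are those deposited. Figures were drawn with matplotlib 3.10.9.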

Additional observations from a re-analysis of the deposited data

How the results depend on the processing

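Over 15 alternatives, 9 of the 12 called genes (CAT, EHHADH, ACAA1, ACOX2, ECI2, PECR, PHYH, GNPAT and AGPS) kept direction and call in every alternative that tested them. A minimum mean FPKM of 5 left 11 of the 30 genes untested, ACOX2 among them. The calls of PEX3, PEX5 and CRAT ended in some, and PEX6, PEX13, ECH1 and DECR2, not called, passed in 1 or 2. The sign of 8 genes that were not called (PEX2, PEX10, PEX14, PEX16, PEX19, PEX26, HACL1 and ACOT8) changed in at least 1. The number of all genes called was 2203 (minimum mean FPKM of 5) to 3267 (no filter). Leaving out a library gave 2309 to 2378 genes called, 8 to 11 members lower and 1 higher, 0 to 2 peroxins lower and 0 higher, and 8 to 10 enzymes lower and 1 higher. With the replicate block 2343 genes were called and 1 peroxin (PEX6) fell, and the calls of PEX3, PEX5 and CRAT ended (adjusted p = 0.0604, 0.0512 and 0.0617). Deviations of same-numbered libraries correlated at 0.015, -0.0321 and 0.0917, and those of the other pairs at -0.098 to 0.084. Whether same-numbered libraries were handled together cannot be settled by these values, as noise in each library could hide it. The median of all genes ranged from -0.00351 to 0.0121. Depth could not be assessed from FPKM.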

Other observations

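PPARA, the fatty acid receptor that activates many peroxisomal oxidation genes, was too low to be tested, at 1.03 ± 0.270 FPKM with vehicle and 0.663 ± 0.0315 FPKM with doxycycline, without overlap. Its dimer partner RXRA fell from 5.47 ± 0.0965 to 3.81 ± 0.224 FPKM (limma adjusted p = 0.0019), whereas RXRB was at 5.92 ± 0.447 and 5.96 ± 0.200 FPKM (adjusted p = 0.921). The coactivator PPARGC1A fell from 5.99 ± 0.431 to 4.98 ± 0.227 FPKM (adjusted p = 0.0398), a call that ended without any 1 of the 6 libraries (adjusted p = 0.0533 to 0.11), and NCOA1 was at 1.75 ± 0.193 and 2.01 ± 0.223 FPKM (adjusted p = 0.296). Of the repressors, NR0B2 fell 2.02-fold, from 81.5 ± 4.96 FPKM (adjusted p = 5.4e-05), and NCOR1 was at 11.5 ± 0.169 and 12.6 ± 0.494 FPKM, without overlap (adjusted p = 0.0722). HNF4A was at 7.97 ± 0.471 and 5.30 ± 2.56 FPKM (adjusted p = 0.151), where doxycycline replicate 3 lay at 8.24 FPKM and the other doxycycline libraries at 3.65 and 4.00 FPKM. Without that library HNF4A passed (log2 fold change -0.89, adjusted p = 0.00142). How these levels relate to those of the peroxisomal enzymes was not tested.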
